A study of Homo sapiens with 8 samples.

Results

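The genes described here are 35 genes of DNA replication and of the passage from G1 into S phase, measured in embryonic stem cells sorted by size. They were chosen by symbol, as listed genes of origin licensing, the replicative helicase, fork synthesis, nucleotide supply and G1/S control, and all 35 were found among 19775 genes that the array annotation names alone. They are covered by 66 of the 54675 probe sets, of which 62 were bright enough to be tested. The 4 that were not belong to CCNE1, CHAF1A, CLSPN and TYMS, each of which kept at least 1 tested probe set.

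The cells were of the human embryonic stem cell line H1, an established line, kept on a feeder layer of irradiated MEF cells (mouse embryonic fibroblasts). A flow cytometer separated a small and a large fraction of the same cultured line by forward and side scatter, which follow cell size and granularity. Each fraction was collected in 4 sorts, and RNA of each sort was hybridised to 1 Affymetrix U133 Plus 2.0 array, which gave 4 small and 4 large samples, and the labels name no other treatment or genetic change. They do not say whether a small and a large sample of one number came from the same culture. The comparison asked which transcripts differ between the fractions. All groups come from 1 cell line, so the differences describe H1 only.

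In late mitosis and G1, the origin recognition complex with CDC6 and CDT1 loads the MCM helicase onto DNA, a step called licensing. Cyclin E kinase and the E2F transcription factors then commit the cell to S phase, CDC45 and the GINS complex activate the helicase, and polymerases, clamp and clamp loader copy the strands. Human embryonic stem cells are known for a short G1 phase and for a large share of cells in S phase. Many of these genes are textbook targets of E2F, and their transcripts usually peak around the G1/S boundary.

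The promoters were read for the letters that E2F factors are known to bind. An E2F-type motif was searched on both strands, spelled TTTCCCGC, TTTCGCGC, TTTGCCGC or TTTGGCGC, in RefSeq windows (GRCh38.p14) that run from 250 bases before to 50 bases after a gene's start. Of 30 members with a window, 17 (56.7%) held at least 1 match, against 3.99% of all 27305 genes with a window of this length. Among 55 genes of a wider replication list with such a window, 23 (41.8%) held a match, so the motif was not particular to the members. The windows of MCM4, MCM5, CCNE2, RPA2 and RPA3 were not used here. The lines below print the 250 bases upstream of the start, with matches in capitals, for the pair of members with the smallest p in the size comparison (GINS2 and CDT1), for an MCM helicase subunit (MCM6) and for E2F1, the factor gene itself.
GINS2, chr16:85688955-85689204, minus strand: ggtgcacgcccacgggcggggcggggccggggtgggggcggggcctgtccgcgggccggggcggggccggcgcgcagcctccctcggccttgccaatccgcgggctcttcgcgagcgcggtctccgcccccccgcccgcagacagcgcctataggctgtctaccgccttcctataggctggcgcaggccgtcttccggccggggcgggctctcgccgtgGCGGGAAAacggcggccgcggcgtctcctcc
CDT1, chr16:88803539-88803788, plus strand: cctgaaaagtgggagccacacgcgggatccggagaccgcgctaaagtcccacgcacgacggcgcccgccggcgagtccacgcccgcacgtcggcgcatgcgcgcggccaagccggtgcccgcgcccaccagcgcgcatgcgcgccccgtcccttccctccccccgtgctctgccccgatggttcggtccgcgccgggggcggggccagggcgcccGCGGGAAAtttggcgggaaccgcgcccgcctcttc
MCM6, chr2:135876444-135876693, minus strand: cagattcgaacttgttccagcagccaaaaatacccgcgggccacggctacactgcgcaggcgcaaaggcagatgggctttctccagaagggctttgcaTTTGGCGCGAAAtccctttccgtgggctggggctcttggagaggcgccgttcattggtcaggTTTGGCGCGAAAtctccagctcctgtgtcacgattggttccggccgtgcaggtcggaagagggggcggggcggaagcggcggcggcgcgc
E2F1, chr20:33686386-33686635, minus strand: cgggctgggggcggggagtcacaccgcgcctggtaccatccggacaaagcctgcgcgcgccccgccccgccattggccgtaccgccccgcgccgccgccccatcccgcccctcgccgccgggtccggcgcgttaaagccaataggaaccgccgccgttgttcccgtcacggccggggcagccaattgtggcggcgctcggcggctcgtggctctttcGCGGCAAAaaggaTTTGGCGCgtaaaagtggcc

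In GINS2 the match began 31 bases and in CDT1 35 bases before the start. MCM6 carried the same run of letters at 152 and at 90 bases, in which TTTGGCGC on one strand overlaps TTTCGCGC on the other. E2F1 carried matches at 33 and 20 bases. By role, 4 of 4 MCM genes with a window, 3 of 4 genes of CDC45 and GINS, and 2 of 3 licensing genes held a match, while 0 of 3 histone supply genes did. The 17 members with a match had a median log2 difference, small minus large, of 0.06, with 9 above 0 and 8 below. The 13 with a window and no match had a median of 0.19, with 12 above 0. This is a description of letters in a window and carries no test.

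No member passed the test between small and large cells. With limma, 0 of 35 members reached an adjusted p under 0.05 over all 14726 genes tested, where 1.99% of all genes did (0.299% higher and 1.69% lower in small cells). At an unadjusted p under 0.05 there were 4 members, GINS2, CDT1 and RPA2 with higher values in small cells and MCM3 with lower values, and this is 11.4% of members against 16.5% of all genes (8.51% higher and 8% lower). For 3 members, GINS2, RPA2 and FEN1, every small array lay above every large array. This is 8.57% of members, where 10% of all genes had separate groups (4.94% higher and 5.07% lower in small cells). The 3 members are all higher in small cells, so their share is above the background of that direction and below that of both directions together.

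The differences were small. All values here are log2 of the intensity plus a pseudocount, quantile normalized between arrays, and a difference is always the small minus the large mean with 4 arrays per group. The members ran from -0.41 (MCM3) to 0.62 (CDT1), with 24 above 0 and 11 below, and their median was 0.08. Over all genes the median was 0.05, and 56.0% lay above 0. The scaling moved both: on the deposited scaling the medians were 0.10 for members and -0.05 for all genes with 20 members above 0, and with median centring 0.25 and 0.10 with 29 above 0. Relative to all genes the members' median was 0.03 higher with quantile normalization and 0.15 higher in those fits. For 34 of 35 members the 95% interval of the difference stayed within a log2 difference of 1 in either direction, the exception being CDT1 with an upper bound of 1.10, while 65.8% of all genes had so narrow an interval. Intervals were within a 1.5-fold change in either direction for 18 members. A p above the threshold does not show that small and large cells have equal levels. Labelling started from equal amounts of RNA, per the labels, so values are relative to the RNA measured, and in such bulk samples fewer S-phase cells and less of a transcript in each cell cannot be told apart.

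**Figure D1:**
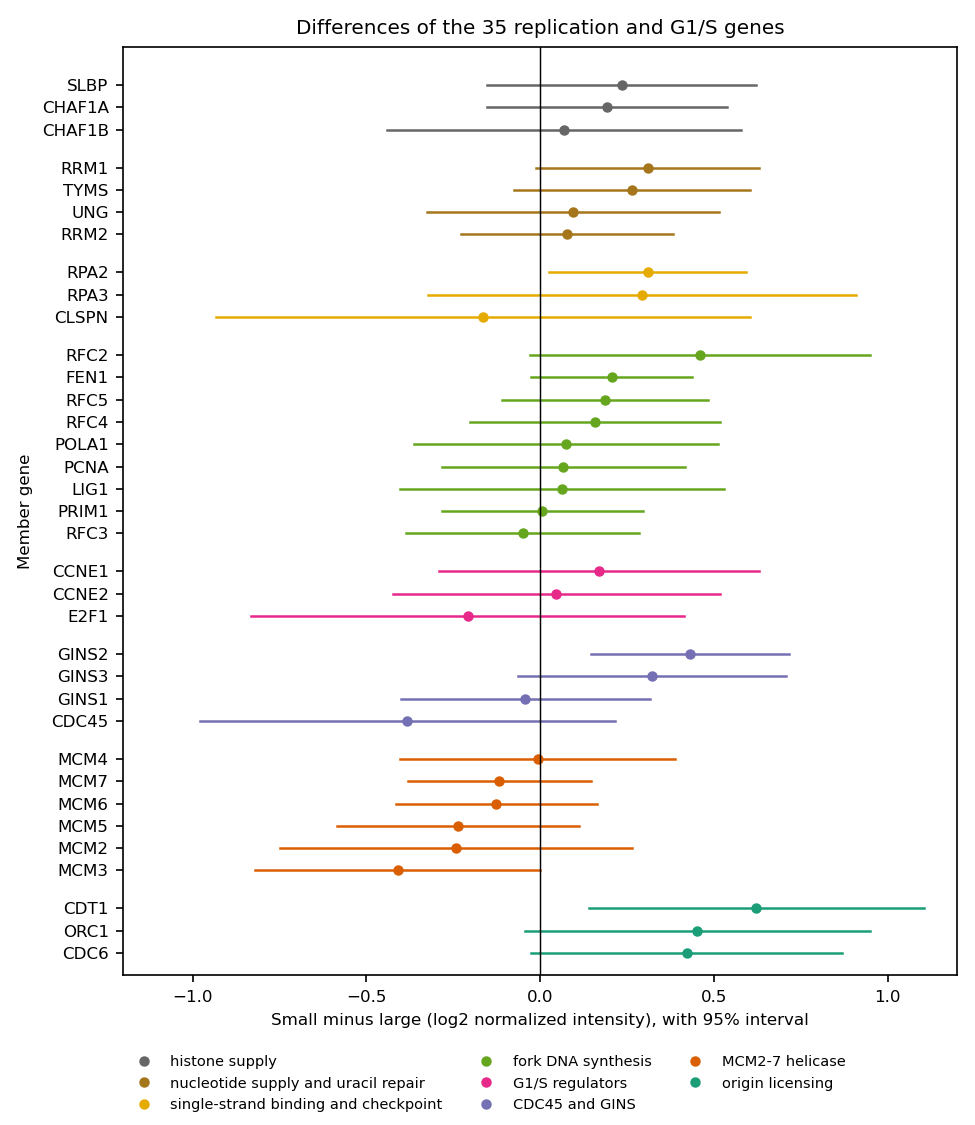
Small minus large difference of each of the 35 members (x axis, log2 normalized intensity) with its 95% interval from limma, 4 arrays per group, coloured by role. The 6 MCM subunits lie at or below 0 and the 3 licensing genes above it, and 31 of the 35 intervals include 0.

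The licensing factors CDT1, CDC6 and ORC1 had the highest median difference of any role, 0.45, with all 3 above 0. CDT1, which brings the helicase to origins, was at 8.40, 7.82, 8.50 and 7.58 on large arrays 1 to 4 and at 9.05, 8.86, 8.35 and 8.52 on small arrays 1 to 4. The small values were the higher ones except that small array 3 lay under large arrays 1 and 3, so the groups overlap. Its difference was 0.62 ± 0.22 SE, a 1.54-fold higher mean in small cells (95% interval 1.10 to 2.15), with an adjusted p of 0.182 in limma. CDC6, the ATPase that joins the origin complex to load the helicase, was at 6.46, 6.51, 6.88 and 6.85 on the large arrays and 7.16, 7.34, 7.30 and 6.58 on the small ones. Small arrays 1 to 3 lay above every large array, and small array 4 lay among them. Its difference was 0.42 ± 0.21 SE (adjusted p = 0.333, limma). ORC1, the largest subunit of the origin recognition complex, was at 5.99, 6.58, 6.77 and 7.06 in large and at 7.05, 6.88, 7.40 and 6.87 in small cells. Its spread was wider in large cells, where array 1 was lowest, and the difference was 0.45 ± 0.23 SE (adjusted p = 0.352, limma). Under each of the 25 alternative settings in which they could be tested, the 3 genes were above 0.

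The MCM helicase, a ring of the proteins MCM2 to MCM7 that unwinds DNA, was the one role in which every difference was below 0, although with median centring or 75th percentile scaling of the arrays 3 of the 6 were above 0. Its 6 subunits had a median of -0.18, from -0.41 for MCM3 to -0.01 for MCM4, and none passed the test. Relative to the median of all genes the subunits were at -0.13 under those scalings with 5 of 6 below it, against -0.23 and 6 of 6 with quantile normalization. MCM3 was at 9.43, 9.74, 9.72 and 9.96 on the large arrays and 9.49, 9.39, 8.72 and 9.62 on the small ones. Small array 3 was the lowest of all 8, and the groups overlap through large array 1. The difference was -0.41 ± 0.19 SE, a 1.33-fold higher mean in large cells (adjusted p = 0.302, limma), and -0.22 without small array 3.

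MCM5 was at 9.76, 10.04, 10.22 and 10.10 in large cells and 9.59, 9.49, 10.12 and 9.98 in small cells. The lowest values were those of small arrays 1 and 2, and the difference was -0.24 ± 0.16 SE (adjusted p = 0.511, limma). MCM2 was at 9.94, 10.37, 10.72 and 10.74 on the large arrays and at 10.04, 9.79, 10.95 and 10.02 on the small ones. The highest value of MCM2 was on small array 3 and the next to lowest on large array 1, each against the direction of its group. Its difference was -0.24 ± 0.24 SE, and it was -0.67 ± 0.14 SE (adjusted p = 0.0239, limma) without those 2 arrays. Leaving out both arrays was a choice made after seeing the data, and 776 of 14726 genes passed in that fit. MCM6 and MCM7 differed by -0.13 and -0.12, with intervals from -0.42 to 0.16 and from -0.38 to 0.15. MCM4 had the difference nearest 0 among the subunits, with an interval from -0.40 to 0.39, and was at 0.10 without large array 3.

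CDC45 and the GINS proteins, which bind the loaded ring and turn it into an active helicase, did not share a direction. GINS2 was at 9.21, 9.08, 8.91 and 8.95 on the large arrays and at 9.34, 9.61, 9.42 and 9.49 on the small arrays. All 4 small values lay above all 4 large ones, with a gap between small array 1 and large array 1. The difference was 0.43 ± 0.13 SE, a 1.35-fold higher mean in small cells (95% interval 1.11 to 1.64), and its adjusted p of 0.117 in limma was the lowest of any member. It passed with array weights (0.46, adjusted p = 0.0452), and turned to -0.05 with the mean of its 3 probe sets. GINS3 had a difference of 0.32 ± 0.18 SE (adjusted p = 0.399, limma), with small values from 6.53 to 6.71 and large values from 6.12 to 6.54. GINS1 was close to 0 at -0.04, with an interval from -0.40 to 0.32. CDC45 was at -0.38 ± 0.28 SE (adjusted p = 0.542, limma), and its lowest value by far was 5.52 on small array 4, where the other 7 arrays lay between 6.27 and 7.01. Without that array the difference of CDC45 was -0.10.

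**Figure D2:**
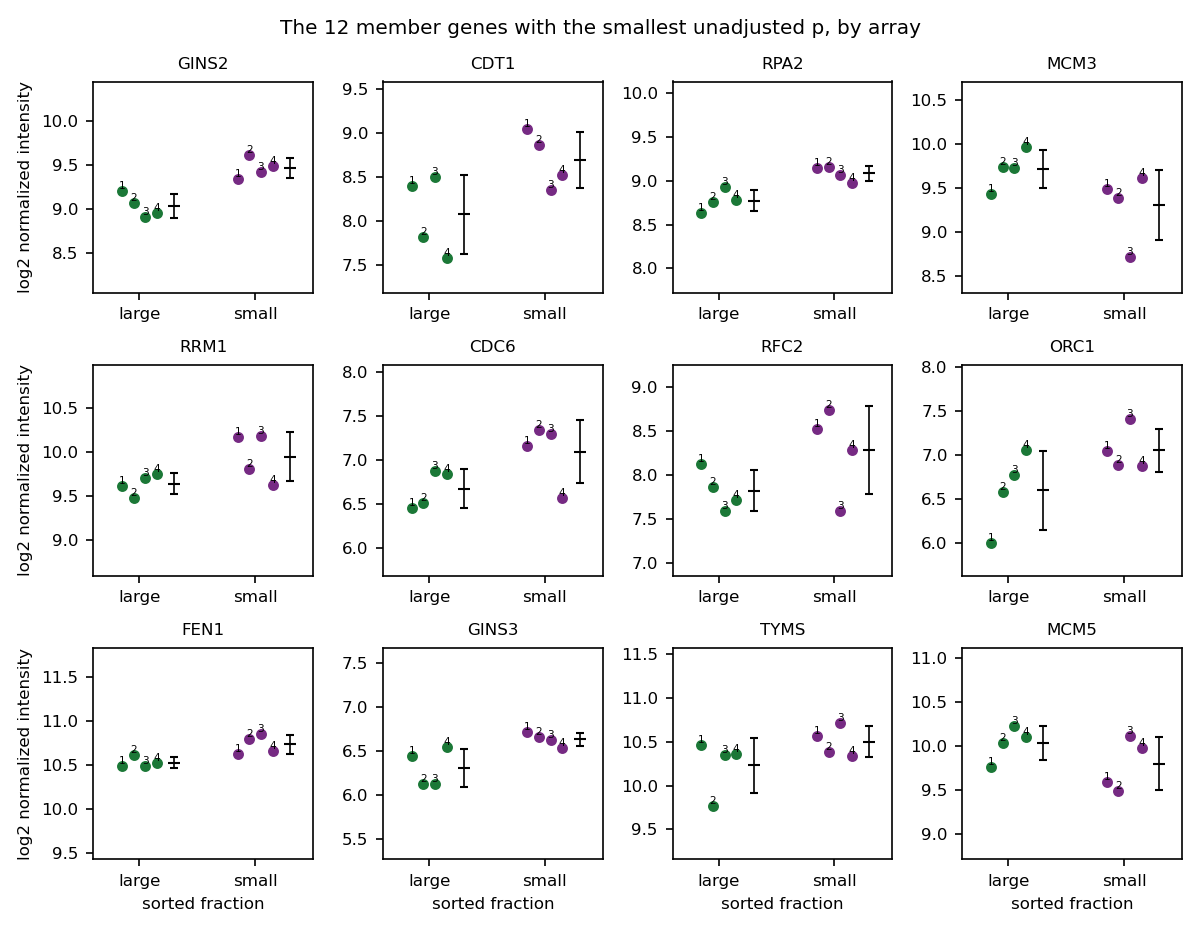
Normalized log2 intensity (y axis, 1 panel a gene, each spanning an equal range) on the 4 large and 4 small arrays, numbered by sort, for the 12 members with the smallest unadjusted p, with the mean and SD of each group beside the points. GINS2, RPA2 and FEN1 show separate groups, while in the other 9 panels the groups overlap.

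The G1/S regulators were close to 0 with wide intervals. Cyclin E1, CCNE1, which activates CDK2 at the end of G1, had a difference of 0.17 with an interval from -0.29 to 0.63, and its paralog CCNE2 of 0.05 with an interval from -0.42 to 0.52. CCNE1 was spread in small cells, from 7.76 on array 2 to 8.91 on array 3, against at most 8.25 in large cells, and without small array 3 its difference was -0.02. E2F1, which activates many of the other members, had a difference of -0.21 with an interval from -0.83 to 0.41, and of 0.02 without large array 3. Its values covered 5.42 to 6.45 in large and 5.04 to 6.04 in small cells, so these arrays bound its change less tightly than that of most members.

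Of the 9 fork synthesis genes 8 were above 0 (9 with median centring, 6 as deposited), and 0 passed the test. RFC2, a subunit of the clamp loader, was at 8.12, 7.87, 7.59 and 7.72 on the large arrays and at 8.52, 8.74, 7.59 and 8.29 on the small arrays. Small arrays 1, 2 and 4 lay above every large array, and small array 3 lay level with the lowest large array. The difference was 0.46 ± 0.23 SE (adjusted p = 0.334, limma). Without small array 3 it was 0.69 (adjusted p = 0.0747, limma), and without that array and large array 1 it was 0.79 ± 0.17 SE (adjusted p = 0.0278, limma). The fit without both arrays was chosen after seeing the data, and 776 of 14726 genes passed in it. The second probe set of RFC2 gave 0.49, close to the first, but small array 3 was not low on it. Its deposited intensity there was 358, against 217 on large array 3. On the first set these 2 arrays, with 75th percentiles of 104 and 106, read 333 and 325. FEN1, the flap nuclease that trims Okazaki fragments, was at 10.49, 10.62, 10.50 and 10.53 in large and at 10.63, 10.80, 10.86 and 10.66 in small cells. The groups only just separated, by the gap between large array 2 and small array 1. The difference was 0.21 ± 0.11 SE, 1.15-fold, with an adjusted p of 0.369 in limma.

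The other clamp loader subunits were at 0.19 (RFC5), 0.16 (RFC4) and -0.05 (RFC3), and the sliding clamp PCNA was at 0.07 with an interval from -0.28 to 0.42. POLA1 and PRIM1, of the polymerase and primase that start each strand, were at 0.07 and 0.01. The interval of PRIM1, from -0.28 to 0.29, was among the narrowest. LIG1, the ligase that seals Okazaki fragments, was at 0.06, with large values from 7.27 to 8.16 and small values from 7.61 to 7.95. On the large arrays LIG1 formed a high pair (arrays 1 and 2) and a low pair (arrays 3 and 4).

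Of the single-strand binding protein RPA, 2 subunits were measured as members. RPA2 was at 8.63, 8.75, 8.92 and 8.78 on the large arrays and at 9.14, 9.15, 9.06 and 8.97 on the small arrays. Every small value was above every large value. The difference was 0.31 ± 0.13 SE, 1.24-fold (95% interval 1.02 to 1.51), with an adjusted p of 0.259 in limma. RPA3 was at 9.50, 9.14, 8.86 and 9.06 in large cells and at 9.80, 9.83, 8.32 and 9.79 in small cells. In RPA3, 3 small arrays were the highest of the 8 and small array 3 the lowest. Its difference was 0.29 ± 0.29 SE (adjusted p = 0.669, limma). Without small array 3 it was 0.67 (adjusted p = 0.0533, limma), and without large array 1 as well 0.79 ± 0.14 SE (adjusted p = 0.0119, limma). The fit without both arrays was chosen after seeing the data, and 776 of 14726 genes passed in it. CLSPN, the claspin gene of the replication checkpoint, was dim and at -0.16, with the wide interval of -0.93 to 0.61, and at 0.21 without large array 1.

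Nucleotide supply genes were all 4 above 0, under the other scalings too, and none passed. RRM1, the large subunit of ribonucleotide reductase, was at 9.62, 9.48, 9.71 and 9.75 in large and at 10.18, 9.81, 10.18 and 9.63 in small cells. Small arrays 1 to 3 lay above the large arrays and small array 4 among them, for a difference of 0.31 ± 0.15 SE (adjusted p = 0.322, limma). Its partner RRM2 was at 0.08, with an interval from -0.23 to 0.38. Thymidylate synthase, TYMS, was at 0.27 ± 0.16 SE (adjusted p = 0.434, limma), and large array 2 at 9.77 stood below the 10.33 to 10.71 of the other 7 arrays. UNG, which removes uracil from DNA, was at 0.09, with an interval from -0.33 to 0.51. In the histone supply role 3 of 3 were above 0 (2 on the deposited scaling). SLBP, which binds the stem-loop of histone mRNA, was at 0.23, and the chromatin assembly subunits CHAF1A and CHAF1B at 0.19 and 0.07, with adjusted p in limma of 0.568 or more.

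Within a fraction the members varied between arrays. Besides E2F1, CCNE1, CLSPN and MCM4, the sign of GINS1, CCNE2, PCNA, RFC3, POLA1, PRIM1, LIG1, RRM2, UNG and CHAF1B turned when at least 1 of the 8 arrays was left out. The pooled SD within a group had a median of 0.27 over members, larger than the median size of their differences, 0.19. The median deviation of the members from their own 8-array means was -0.15 on large arrays 1 and 2, near 0 on large arrays 3 and 4, and 0.09, 0.01, 0.17 and 0.03 on small arrays 1 to 4. The licensing genes gave the wider contrast, at -0.43, -0.38, -0.005 and -0.04 on large arrays 1 to 4. On small arrays 1 to 4 they were at 0.28, 0.46, 0.42 and 0.05, so large arrays 3 and 4 lay near small array 4. The MCM subunits were at -0.07, 0.02, 0.32 and 0.17 on large arrays 1 to 4. They were between -0.17 and -0.14 on small arrays 1, 2 and 4, with small array 3 apart at 0.12. Small array 3 combined the highest values of MCM2, CCNE1 and UNG with the lowest of RPA3 and MCM3.

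**Figure D3:**
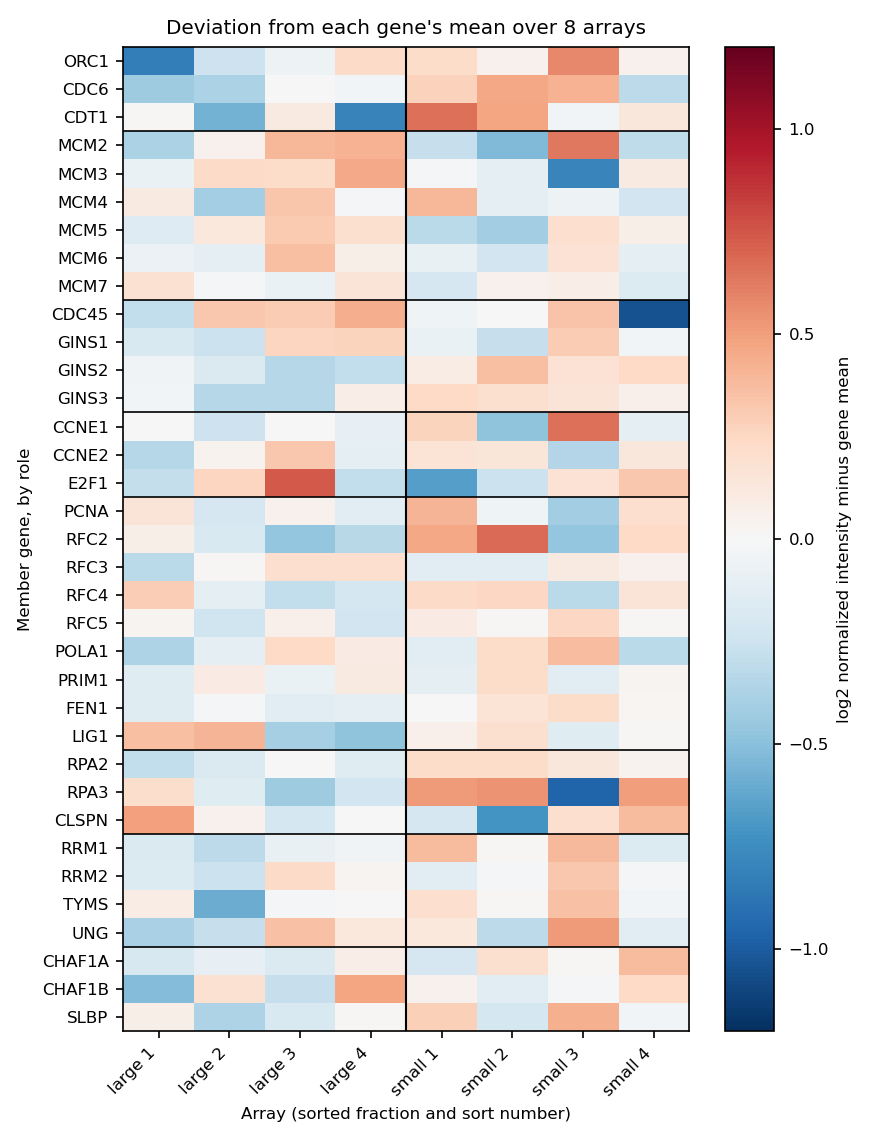
Each member's log2 normalized intensity minus its own mean over 8 arrays (colour), with arrays in columns and genes in rows by role. Deviations run from -1.05 (CDC45 on small array 4) to 0.74 (E2F1 on large array 3), and no role holds one colour across a whole fraction, the licensing genes coming nearest.

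RNA integrity was read from the control probe sets of GAPDH and ACTB, as the log2 signal at the 3 prime end minus that at the 5 prime end, which grows as RNA degrades. Large array 1 (2.92) and small array 3 (2.66) had the highest value in their groups. The large group had a mean of 2.12 ± 0.53 (SD, n = 4) and the small group of 2.37 ± 0.30 (SD, n = 4), a difference within the spread of the sorts (p = 0.4 in an exact permutation test, two-sided, where 0.0286 is the smallest possible). Without both arrays, a choice made after seeing the data, 3 members passed in limma, RPA3 and RFC2 higher and MCM2 lower in small cells, among 776 of 14726 genes. That fit rests on 3 arrays per group, and the part of RNA integrity in it was not tested. No member passed when any 1 array was left out. With that RNA measure as a covariate, 0 members passed, and MCM3 was at -0.31 and CDT1 at 0.59.

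Probe sets of a gene did not always agree. Of 19 members with several tested probe sets, 10 had all of them on one side of 0 and 9 did not. CDT1 (0.62 and 0.44), RFC2, RFC5, CHAF1A, MCM5 (-0.24 and -0.48) and MCM7 (-0.12 and -0.20) agreed in sign. The probe sets of GINS2 gave 0.43, 0.03 and -0.62, and the last 2 were dim with standard errors of 0.43 and 0.51. For RRM1 they gave 0.31 and -0.24, and for FEN1 0.21 and -0.05. CDC6 agreed in sign at 0.42 and 0.06. At the level of probe sets 0 of 62 passed in limma, against 1.5% of all probe sets tested, and 5 had an unadjusted p under 0.05, against 15.3%. Probe sets whose name ends in _s_at or _x_at, which can bind several transcripts, represented 14 members, CDT1 and CHAF1A through _x_at sets. Without such sets 26 members could be tested and 0 passed.

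**Figure D4:**
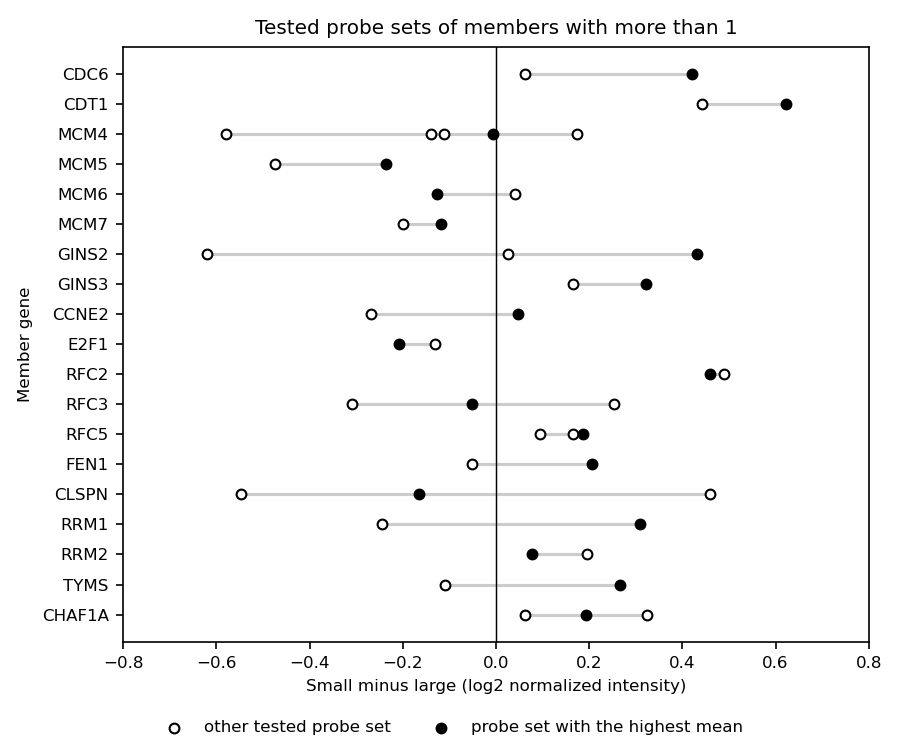
Small minus large difference (x axis, log2 normalized intensity) of every tested probe set of the 19 members with more than 1. The filled point is the probe set with the highest mean, which stands for the gene, and open points are the others. GINS2, MCM4 and CLSPN spread across 0, while CDT1, RFC2 and MCM5 stay on one side.

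No gene of a wider replication list passed either. A list of 67 further replication genes (origin, polymerase, fork, repair and E2F family genes among them) had 63 tested, of which 0 passed in limma, 5 had an unadjusted p under 0.05 with a difference above 0 and 2 with one below, together 11.1% against 16.5% of all genes. Their median difference was 0.02. MCM8, which encodes a helicase outside the MCM2 to MCM7 ring, was at 0.62 ± 0.18 SE (adjusted p = 0.0958) with groups that did not overlap. GMNN, the geminin gene whose protein blocks CDT1, was at 0.32 ± 0.13 SE (adjusted p = 0.22), and POLE4, a small subunit of polymerase epsilon, at 0.61 ± 0.21 SE (adjusted p = 0.161). HELLS, a chromatin remodeller, was at -0.61 ± 0.20 SE (adjusted p = 0.137).

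Markers measured beside the members describe what the samples held. Of 13 markers of undifferentiated stem cells 11 were tested. Their mean log2 level was between 10.76 and 10.99 on every array, so these markers of the labelled cell type were present in both fractions. By difference, 10 of the 11 were below 0 and 1 above, with a median of -0.11, where 56.0% of all genes were above 0. In limma 0 of the 11 passed, and their part in the members' values was not tested. POU5F1 and TDGF1 had no tested probe set assigned to them alone. Of 10 G2/M genes, 7 were above 0 and 3 below, with a median of 0.14. At an unadjusted p under 0.05, 3 were higher and 2 lower in small cells, 50% against 16.5% of all genes. Only CENPF passed, lower in small cells (-0.86, adjusted p = 0.0089, limma). This is 10% of the G2/M genes, where 1.99% of all genes passed. MKI67, a general marker of cycling cells, was at -0.79 (adjusted p = 0.0976), while TOP2A was at 0.56 (0.0916) and AURKA at 0.48 (0.0809). The part of G2/M genes in the members' values was not tested. Fibroblast markers had 11 of 13 tested and mean levels of 6.71 to 7.79 in large and 6.79 to 7.68 in small cells. The part of feeder RNA, which is of mouse, was not tested. Of 6 neural markers 6 were above 0, 3 had an unadjusted p under 0.05 and 0 passed in limma. Their mean levels were 4.78 to 4.95 in large and 5.41 to 5.61 in small cells. PAX6 (1.77) and STMN2 (1.15) differed most. Both were dim in large cells, with means of 3.71 and 3.36 near the cutoff for testing, 3.62. DCX was at 0.57, SOX1 at 0.22, NES at 0.21 and MAP2 at 0.02. The part of neural markers in the members' values was not tested. Markers of mesoderm and endoderm, 5 of 8 tested, ranged from 4.85 to 6.14 in large and 4.69 to 5.87 in small cells.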

How the data were processed

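The authors deposited 1 linear intensity per probe set and array, and per the labels' design text the array data came from GeneChip Operating Software and passed through Rosetta Resolver 7.1. The background correction and scaling behind these intensities are not given in the sources used here. Their 75th percentiles ran from 41.9 to 106 units, so arrays were not on a common scale.

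Groups and sort numbers came from the sample titles, and the labels describe the sorts as independent biological repeats. No 2 arrays held identical values. After leaving out 62 control probe sets, log2(intensity + 1.81), the pseudocount being the 10th percentile of all values, was quantile normalized. Probe sets with an 8-array mean above the 40th percentile (3.62) were tested, 32768 in all. GEO's platform annotation gave 41091 probe sets 1 symbol, 1801 several and 11721 none, and symbols were updated by gene ID through RefSeq. Each gene was represented by its tested probe set with the highest mean. The fractions were compared by limma (version 3.58.1, R 4.3.3; variance trend, two-sided, Benjamini-Hochberg adjustment over 14726 genes). The number of arrays limits precision. Fold changes of dim genes are understated by the pseudocount. Full statistics were given for called members and the 12 with the smallest p. Of other listed genes, up to 4 with the smallest p were named. MCM2, RPA3 and CDC45 are shown by array, and some markers named, after their values were seen. The test was tested on simulated data. The members and lists were chosen with earlier results of these data known.

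Alternatives covered scaling, pseudocount, filter, model, probe set choice and each array left out. Promoter sequences are RefSeq's.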

Additional observations from a re-analysis of the deposited data

Results flagged for a closer look

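In 4 of 70 groups of 4 arrays (35 members, small and large), 1 array stood far from the other 3, by the gap to its neighbour as a share of the group's range. Chance alone gives about 1 in 20. For RPA3 small array 3 was at 8.32 and the other small arrays at 9.79 to 9.83, a share of 0.976. For CCNE2 the same array was at 5.53 against 6.02 to 6.04 (0.958), and for RFC4 it was at 9.47 against 9.95 to 10.04 (0.849). For TYMS large array 2 was at 9.77 against 10.34 to 10.46 (0.834). Without small array 3 the difference of RPA3 went from 0.29 to 0.67, and without large array 2 that of TYMS from 0.27 to 0.11.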

How the results depend on the processing

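Of 297 values of the 12 members with the smallest p over all settings, 294 kept their direction and side of the threshold. GINS2 passed with array weights and had a log2 difference of -0.054 with the mean of probe sets (adjusted p = 0.940, limma). Called members numbered 1 (1 higher) with array weights and 3 (2 higher, 1 lower) without large array 1 and small array 3, a setting chosen after seeing the data, in which 3 member probe sets were called. They were 0 in every fit with 1 array left out. Members with separate groups numbered 0 on the deposited scaling, 1 with the mean of probe sets, 1 without _x_at and _s_at sets, 3 to 6 with 1 array left out and 11 without both arrays, where 26.9% of all genes had them. The share of all genes was 1.30% on the deposited scaling, 9.23% with the mean of probe sets and 9.31% without _x_at and _s_at sets. With 1 array left out it was 12.4% to 17.7%. Called genes of the other replication list, of which 63 were tested in the main fit, numbered 3 with array weights and 1 at an adjusted p under 0.1. They numbered 2 without both arrays and 0 to 1 with 1 array left out. Beside these counts, 824 of 14726 genes were called with array weights, 593 at an adjusted p under 0.1 and 776 without both arrays. The members' median was 0.25 with median centring, 0.24 with 75th percentile scaling and 0.10 to 0.16 with 1 array left out.

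Over all genes, 293 calls became 0 with median centring, 0 without the variance trend, 0 with the intensities scaled as deposited, 824 with array weights, 776 without both arrays, 593 at an adjusted p under 0.1, 190 without _x_at and _s_at sets, 166 with the RNA covariate and 62 to 553 with 1 array left out. With 75th percentile scaling 62 of 210 calls were higher in small cells, against 44 of 293. The correlation of same-numbered sorts ran from 0.01 to 0.23 and was over 0.1 in 3 of 4 pairs, and 6 of 8 arrays correlated best with their own number. This is a hint from the data that same-numbered sorts may be related, which the labels do not state, so the replicate block was kept as an alternative. With the replicate block 753 genes and 0 members were called, and the members' median was 0.08. Among the members CLSPN, the dimmest, had the widest interval. Width did not follow brightness throughout, since RPA3 at a mean of 9.29 (-0.32 to 0.91) had a wider one than CCNE2 at 5.88 (-0.42 to 0.52).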
